A study of Polypedilum vanderplanki with 33 samples.

Results

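Early rewetting was set against early drying in Polypedilum vanderplanki, the sleeping chironomid, to ask how the 2 states differ in gene expression. The comparison used 6 of the 33 libraries of a drying and rewetting series. Early rewetting was represented by larvae at 3 h of rehydration (replicate 1 of batch 1, replicate 2 of batch 2) and at 6 h of rehydration (replicate 1 of batch 1). Early drying was represented by larvae at 8 h of dehydration (replicates 1 and 3 of batch 1, replicate 2 of batch 2). The libraries were chosen by stage and time in the labels and not by any measured value. All 6 were made from polyadenylated RNA of whole larvae of inbred lines, reared on milk agar at controlled temperature and light, and no group carried a genetic change. Each group thus held 2 libraries of batch 1 and 1 of batch 2, where batch is a number given in the labels. The labels do not say whether replicate libraries stem from separate cultures or animals. The p-values therefore reflect the spread among these libraries alone, and that spread may be technical. The spread of the rewetting group also holds the difference between 3 and 6 h.

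The larvae of this midge live in temporary rock pools and survive the loss of almost all their body water, a state called anhydrobiosis. As background, slow drying lets a larva build up protective molecules, among them the sugar trehalose and late embryogenesis abundant (LEA) proteins, while rewetting brings back metabolism and calls for repair of damaged DNA and proteins. The series title places drying under the heat shock regulatory system. The files do not pair gene IDs with names, and 0 of the 28415 IDs matched the reference table, so no gene below can be assigned to any of these functions and no tissue or stage marker could be checked. Genes are given by ID or by position on the scaffolds of the deposited annotation.

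Total counts lay between 15015674 and 27610352 per library in the drying group and between 26177377 and 26564125 in the rewetting group. Levels are given as CPM, a count relative to the total of its library, scaled with TMM factors, which align libraries on the bulk of their genes. Values per library are listed in the order replicates 1, 3 and 2 for drying, and 3 h replicate 1, 3 h replicate 2 and 6 h for rewetting. The Pearson correlation of log2 CPM, across genes, was between 0.934 and 0.960 within a group and between 0.822 and 0.876 between groups, as a description of libraries that share their genes. Levels of other times below are on a scale of 32 libraries, which leaves out replicate 2 at 1 h of rehydration, since that library alone moved the calls as given below. TMM factors of the rewetting libraries were 1.16, 1.34 and 1.4 on that scale, against 0.952, 1.096 and 1.134 on the scale of the 6. Values on the 2 scales are thus not directly comparable. Factors were 0.557 to 0.730 at 48 h of drying and 0 h of rehydration, so CPM there depends on scaling.

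The groups differed in 4081 of the 13950 genes tested, or 29.3%. Of these, 2098 genes (15.0% of those tested) were higher at 3 to 6 h of rehydration than at 8 h of drying, and 1983 genes (14.2%) were lower. The test was the quasi-likelihood F-test of edgeR with batch as covariate, and a gene was called at a Benjamini-Hochberg adjusted p under 0.05 over all genes tested. The other 9869 genes did not pass, which does not show that their levels were alike. Because RNA was taken from whole larvae, fewer cells of a type and less RNA per cell cannot be told apart. Without scaling factors, the median log2 fold change of all genes tested moved from 0.00 to 0.17, and the split of calls went from 51.4% higher to 63.3% higher, with 2619 genes higher and 1521 lower.

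Most differences were moderate. The median log2 fold change was 1.23 over the genes called higher and -1.34 over the genes called lower. At least a 2-fold difference was seen for 1369 of the higher and 1406 of the lower genes, 9.81% and 10.1% of all genes tested. At least an 8-fold difference was seen for 194 higher and 215 lower genes. The libraries of the groups did not overlap for 2070 of the 2098 higher and 1939 of the 1983 lower genes, against 46.5% of all genes tested. Each called gene differed in the same direction within batch 1 and within batch 2. The median log2 difference of the higher genes was 1.26 within batch 1 and 1.16 within batch 2. That of the lower genes was -1.33 and -1.32. The genes were called on these same libraries, so the shared direction and these medians are a description and not a replication. A test of the group by batch interaction in edgeR called 0 genes (0% of those tested), with 310 genes at an unadjusted p under 0.05. Batch 2 entered that test with 1 library per group, assumed to vary like those of batch 1.

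**Figure D1:**
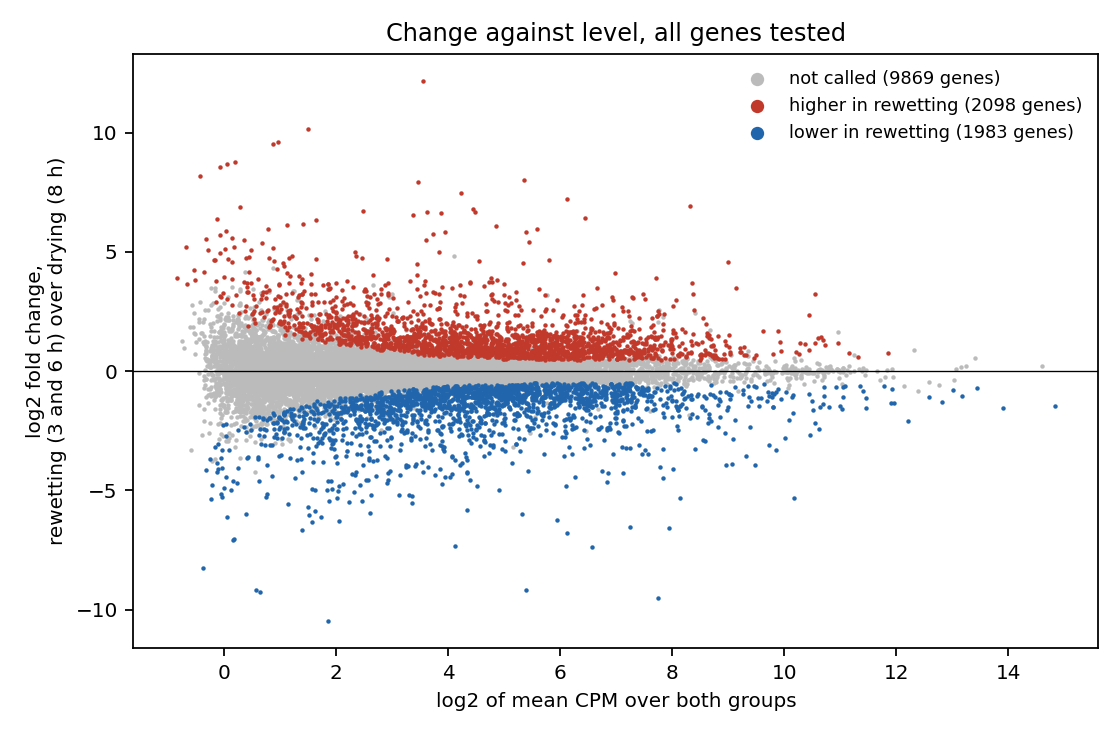
Each point is 1 of the 13950 genes tested, with the log2 of its mean CPM over both groups on the x axis and its fitted log2 fold change, rewetting over drying, on the y axis. The 2098 genes called higher (red) and the 1983 called lower (blue) lie on both sides over nearly the whole range of levels, and genes at low levels needed a larger fold change to be called.

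The count of calls depended on which libraries entered the fit. Batch 1 alone gave 1346 genes higher and 1288 lower. Leaving out 8 h replicate 2 gave 1375 and 1255, and leaving out 3 h replicate 2 gave 1314 and 1312. With either of these batch 2 libraries left out, the batch term takes up the other. The group difference in all these fits thus came from the same batch 1 libraries, so they are not separate checks. A fit of all 33 libraries, which includes the outlying library at 1 h of rehydration, gave 299 and 590, and the same fit without that library gave 1495 and 1838.

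The called genes took a large part of all reads. The genes lower in rewetting took 36.1%, 36.0% and 38.3% of the counts in the drying libraries and 17.3%, 16.6% and 17.0% in the rewetting libraries. The genes higher in rewetting took 9.24%, 8.55% and 8.90% in drying and 21.3%, 22.1% and 22.3% in rewetting. The groups did not overlap for either set. The sets were chosen for this difference, so their shares are a description. Per kilobase of exon, the median level over both groups was 16.4 CPM for the lower genes, 12.8 CPM for the higher genes and 4.90 CPM for the genes not called.

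The gene with the largest fitted rise was PvG011225, a gene of 3 exons on scaffold 210 (349178 to 354406, plus strand). It had 0 counts in all 3 drying libraries and 846, 550 and 526 counts in the rewetting libraries at 3 h replicate 1, 3 h replicate 2 and 6 h. These are 33.5, 19.2 and 17.7 CPM. Relative to a floor of 3 counts over the drying group, its rewetting level was at least 488-fold higher on the TMM scale (edgeR, adjusted p = 5.19e-05). The gene also had 0 counts at 0 h and 12 h of drying. On the scale of 32 libraries it was at most 5.59 CPM in the dry larvae of 48 h of drying and 0 h of rehydration. With 1 library each, it stood at 3.26 CPM at 24 h of rehydration and 10.6 CPM at 48 h. Of the 32 libraries, 3 h replicate 1 held its highest level.

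The most abundant gene among those at least 2-fold higher was PvG011917, a gene of 2 exons and 244 exonic bases on scaffold 2241 (47861 to 48818, minus strand). It stood at 1233, 1196 and 1203 CPM in drying (replicates 1, 3 and 2) and at 2979, 2190 and 3117 CPM in rewetting. The drying libraries lay within 37 CPM of each other, and every rewetting library lay above them. The means were 1211 ± 19.6 CPM (SD, n = 3) and 2762 ± 500 CPM (SD, n = 3), a log2 fold change of 1.17 ± 0.18 (SE) (edgeR, adjusted p = 0.00127). On the scale of 32 libraries, it averaged 2404 CPM at 0 h of rehydration, against 2121 CPM at 3 h and 722 CPM at 24 h of drying. The TMM factors were 0.613 and 0.647 at 0 h of rehydration and 1.16 and 1.34 at 3 h. The order of 0 h and 3 h of rehydration thus depended on scaling. This gene model overlaps another, so part of its reads may be shared.

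PvG017292, a gene of 2 exons on scaffold 314 (5884 to 6812, plus strand), had the largest fitted fall. It had 111, 84 and 274 counts in drying replicates 1, 3 and 2 and 0 counts in all 3 rewetting libraries. Set against a floor of 3 counts over the rewetting group, its level there was at least 205-fold lower on the TMM scale (edgeR, adjusted p = 0.000145). The drying libraries differed for this gene, at 4.23, 5.79 and 11.9 CPM. Its counts were also 0 at 1 h of rehydration, at 48 h of drying in replicate 2 and at 0 h of rehydration in replicate 1. On the scale of 32 libraries it stood at 1.79, 11.7 and 2.35 CPM in the single libraries at 12, 24 and 48 h of rehydration, against 10.3 to 14.4 CPM at 24 h of drying.

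PvG031556, a single-exon gene on the plus strand of scaffold 77936 (51401 to 52185), was the most abundant of the genes at least 2-fold lower. It alone took 4.03% of all counts of the drying group. Its level was 42367, 41121 and 44193 CPM in drying and 20378, 12268 and 13860 CPM in rewetting. All 3 rewetting libraries lay below the drying libraries, with 3 h replicate 1 nearest to them. The means were 42560 ± 1545 CPM (SD, n = 3) and 15502 ± 4297 CPM (SD, n = 3), a log2 fold change of -1.47 ± 0.22 (SE) (edgeR, adjusted p = 0.00113). On the scale of 32 libraries it averaged 11799 CPM at 0 h, 44932 CPM at 0 h of rehydration and 13396 CPM at 3 h. At 12, 24 and 48 h of rehydration it stood at 6337, 7254 and 2844 CPM, with 1 library each. This model also overlaps another.

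**Figure D2:**
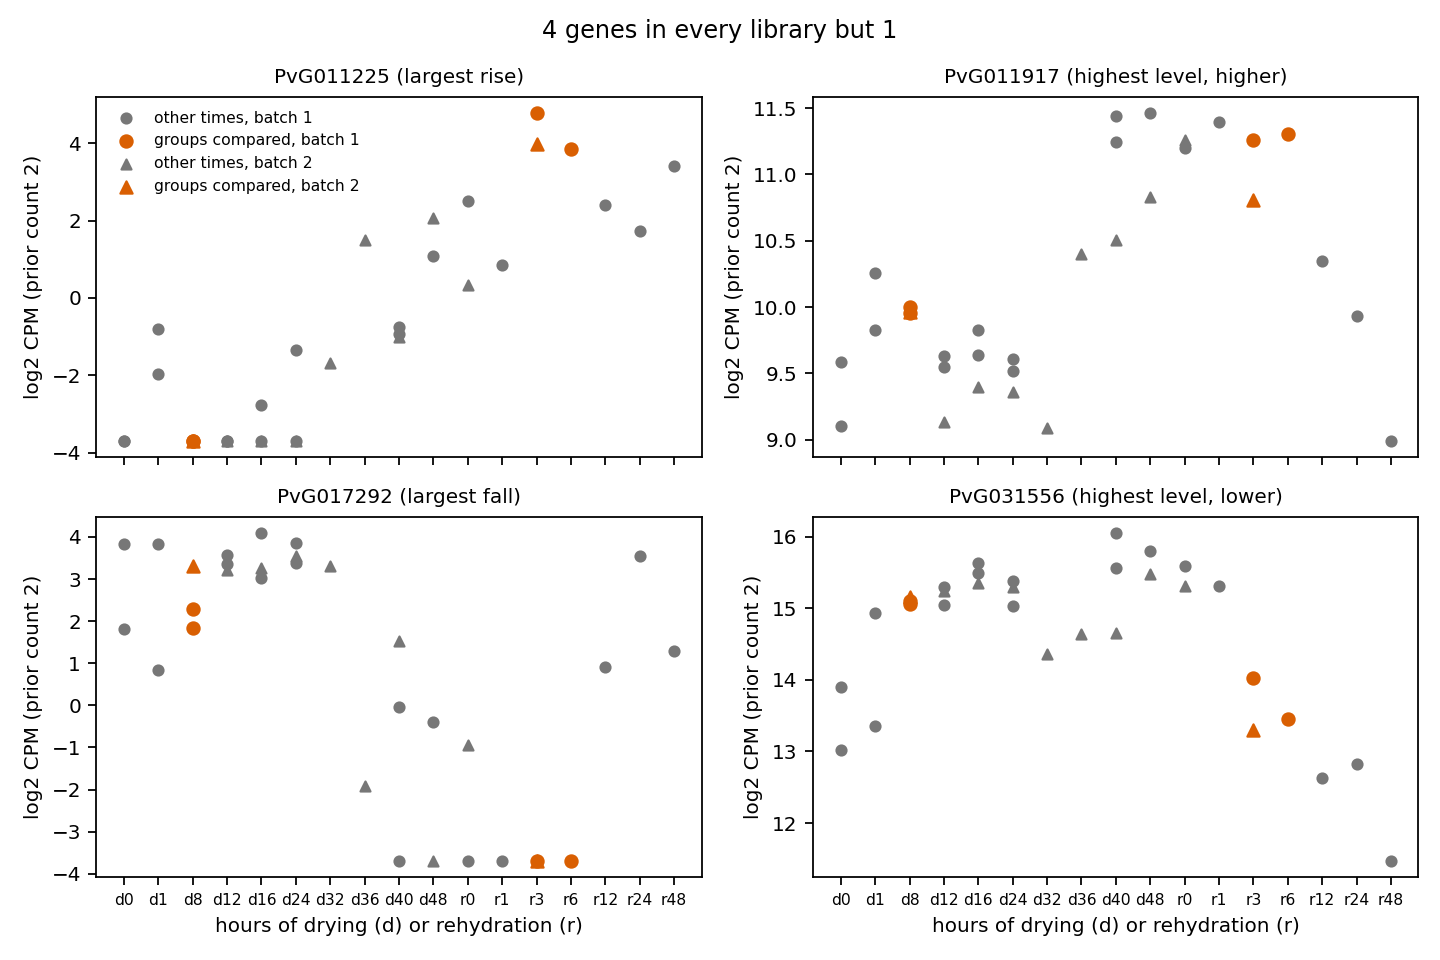
Points give the log2 CPM (prior count of 2) of 4 genes in each of 32 libraries, ordered by hours of drying (d) and rehydration (r), with circles for batch 1 and triangles for batch 2. Orange points are the groups compared: PvG011225 and PvG017292 sit at their floor in one group, while PvG011917 and PvG031556 differ by 2.26-fold and 2.78-fold at high levels.

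Outright absence from a group was rare. Of the genes tested, 8 had no count in any drying library, and each was called higher in rewetting. Their levels in rewetting were between 32.0-fold and 488-fold above the floor of 3 counts over the group, on the TMM scale. Another 4 had no count in any rewetting library, each called lower, with levels in drying 39.8-fold to 205-fold above the floor. These genes had to reach 1 CPM in all 3 libraries of the other group to be tested, so these genes had to differ. All 12 had counts at other times of the series.

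The other libraries showed where these genes stood before and after. The called genes were followed through 26 libraries outside the comparison, and each gene's level was placed on the drying or the rewetting side of the midpoint between both groups. In undried larvae, 323 of the 2098 higher genes (15.4%) and 530 of the 1983 lower genes (26.7%) lay on the rewetting side. At 12 to 24 h of drying, 187 (8.91%) and 163 (8.22%) did, and 98 and 350 without scaling factors.

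The dry state divided both sets. At 48 h of drying and 0 h of rehydration, 1041 of the higher genes (49.6%) and 1186 of the lower genes (59.8%) lay on the rewetting side. Of the higher genes, 746 lay above their rewetting level and 719 below their drying level, and of the lower genes 661 lay below their rewetting level and 369 above their drying level. These counts depend on scaling, because the TMM factors of the dry libraries were 0.557 to 0.730 against 1.11 to 1.16 at 8 h of drying. Without scaling factors, 576 higher genes (27.5%) and 1796 lower genes (90.6%) lay on the rewetting side in dry larvae.

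Later recovery moved back. Of the higher genes, 1265 (60.3%) were on the rewetting side at 12 h of rehydration, 938 (44.7%) at 24 h and 731 (34.8%) at 48 h. Of the lower genes, 1144 (57.7%), 749 (37.8%) and 832 (42.0%) were. Each of these times was a single library of batch 1. Without scaling factors, the counts at 12, 24 and 48 h were 1742, 965 and 746 for the higher genes. For the lower genes they were 721, 722 and 815, so their course from 12 to 24 h depended on scaling. In the groups compared and the times around them, the median log2 CPM of the higher genes was 3.65 at 8 h of drying, 4.19 at 0 h of rehydration, 4.88 at 3 h, 4.82 at 6 h and 3.99 at 48 h. That of the lower genes was 4.73, 3.67, 3.35, 3.30 and 4.21. The extremes at 3 and 6 h and the level at 8 h were fixed by how the genes were chosen, and the others were not.

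**Figure D3:**
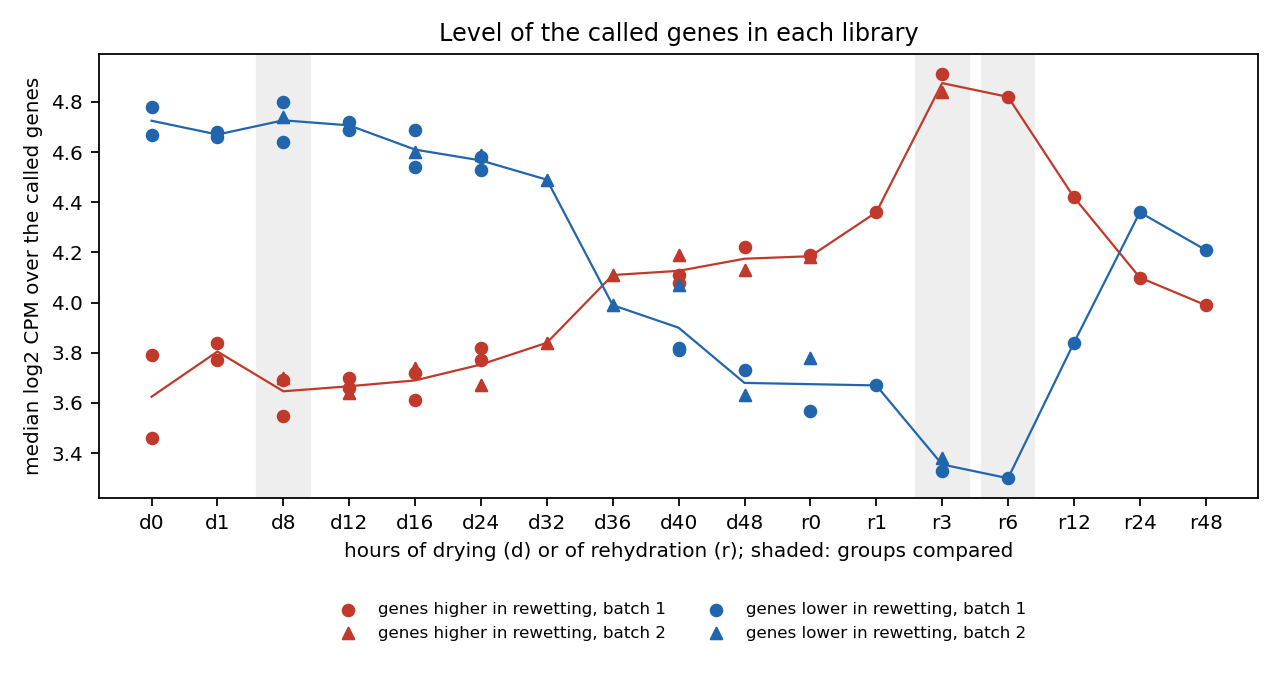
Median log2 CPM over the 2098 genes higher in rewetting (red) and the 1983 lower (blue) in each of 32 libraries, by hours of drying (d) and rehydration (r), with circles for batch 1, triangles for batch 2, lines through the means per time and the groups compared shaded. With TMM scaling, levels of both sets stay near their 8 h values to 24 h of drying and lie in between from 36 h of drying to 1 h of rehydration. They return toward the 8 h values by 24 h of rehydration. The position of dry larvae depends on scaling: without factors, 1343 of the lower genes lay below their rewetting level there. Of the higher genes, 1156 then lay below their 8 h level.

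Outside the groups compared, the called genes reached their highest level at different times. Levels were compared on the scale of 32 libraries, with TMM factors of 0.557 to 0.730 in dry larvae and 1.59 at 12 h of rehydration. The part of scaling in these times was not tested. The time of 1 h of rehydration was left out. Of the higher genes, 957 (45.6%) peaked at 36 to 48 h of drying or in dry larvae and 991 (47.2%) at 12 to 48 h of rehydration, against 36.2% and 39.9% of all genes tested. In undried larvae or at 1 h of drying 97 (4.62%) peaked, and at 12 to 32 h of drying 53 (2.53%), against 13.6% and 10.2% of all genes tested. Of the lower genes, 560 (28.2%) peaked in undried larvae or at 1 h and 431 (21.7%) at 12 to 32 h of drying, above those same background shares. Another 411 (20.7%) peaked at 36 to 48 h of drying or in dry larvae and 581 (29.3%) in recovery, below the 36.2% and 39.9% of all genes tested.

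The genes at least 8-fold apart gave the clearest course. The 194 higher ones had a median of 0.388 CPM at 8 h of drying and 5.57 CPM in rewetting, which is the difference they were chosen for. In the other states their median was 0.538 CPM in undried larvae, 1.34 CPM in dry larvae, 3.31 CPM at 12 h of rehydration and 1.42 CPM at 48 h. The 215 lower ones had a median of 10.2 CPM at 8 h of drying and 0.677 CPM in rewetting. Their median was 13.4 CPM in undried larvae, 6.63 CPM at 32 h of drying, 2.23 CPM at 36 to 40 h, 1.27 CPM in dry larvae, 2.79 CPM at 12 h and 10.9 CPM at 48 h of rehydration. The median of the strongly lower genes was thus under 3 CPM from 36 to 40 h of drying through 12 h of rehydration.

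Lists of tested genes, built from libraries outside the comparison, differed in how often their members were called. Both undried libraries were of batch 1, and the dry group held both batches, so batch was not balanced within these lists. Of 2477 genes raised at least 2-fold in dry over undried larvae, 814 (32.9%) were higher in rewetting and 184 (7.43%) lower, against 15.0% and 14.2% of all genes tested. Of 3377 genes lowered in dry larvae, 230 (6.81%) were higher and 899 (26.6%) lower. The median log2 fold change was 0.47 over the first list, -0.39 over the second and 0.00 over all genes. The order held when the lists were built without scaling factors, with 43.6% higher and 6.67% lower of 1139 raised genes, and 9.06% higher and 20.7% lower of 6279 lowered genes.

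Genes that moved in the middle of drying were more often lower in rewetting, whichever way they had moved. Of 833 genes raised at 12 to 24 h over 0 h, 240 (28.8%) were lower in rewetting and 151 (18.1%) higher, with a median log2 fold change of -0.26. Of 898 genes lowered at 12 to 24 h, 264 (29.4%) were lower and 88 (9.80%) higher, with a median of -0.45. In both lists, lower calls outnumbered higher ones in each of the 20 alternative settings, which share libraries and most of their genes. The genes lowered from the dry state to 12 to 48 h of recovery held 615 (24.2%) higher and 329 (12.9%) lower of 2541. The 3195 genes raised over that step stood near the background, with 475 (14.9%) higher and 581 (18.2%) lower. Their order turned without scaling factors, to 557 higher and 457 lower. Calls over all genes tested shifted the same way there, to 2619 higher and 1521 lower, so the turn is not particular to this list.

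Gene structure went with the calls to a smaller degree. Of all genes tested, 15.0% were higher and 14.2% lower. The shares lower of genes with 2 to 3 and with 4 to 11 exons lay near that background. Of 664 tested genes with 12 or more exons, 130 (19.6%) were higher and 82 lower. The share lower in this list was below that of all genes tested. Of 5567 genes with 4 to 11 exons, 1020 (18.3%) were higher and 844 (15.2%) lower. Of 2196 single-exon genes, 272 (12.4%) were higher and 238 (10.8%) lower, and of 5522 genes with 2 to 3 exons, 676 (12.2%) were higher and 819 (14.8%) lower. Without scaling factors the order of the last list turned, to 867 higher and 627 lower, as all genes tested shifted to 2619 higher and 1521 lower. Level and length rose with exon number: the median level was 3.32 CPM for single-exon genes, 8.00 for 2 to 3 exons, 18.9 for 4 to 11 and 35.3 for 12 or more. Their part in these shares was not tested. The median exonic length was 1948 bases for the higher genes, 1312 for the lower genes and 1535 for all genes tested.

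**Figure D4:**
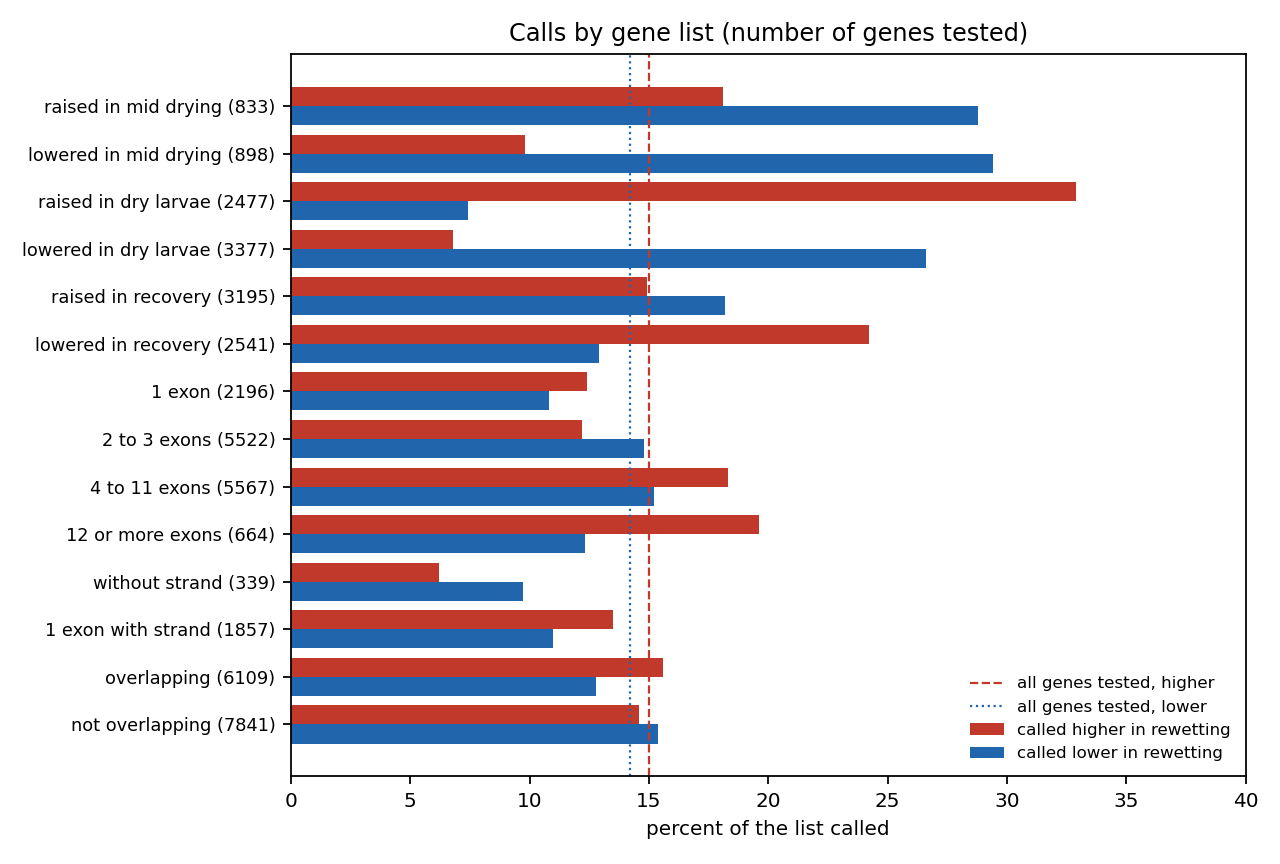
Bars give the percent of each list called higher (red) or lower (blue) in rewetting, with the number of genes tested in parentheses, and dashed and dotted lines mark the 15.0% and 14.2% of all genes tested. Genes raised in dry larvae stand at 32.9% higher, and genes lowered in dry larvae at 26.6% lower.

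Some called genes lay next to each other. Among tested genes in order along the scaffolds, 847 of the 2098 higher genes (40.4%) lay in 360 runs of at least 2, the longest of 6 genes. Of the 1983 lower genes, 802 (40.4%) lay in 329 runs, the longest of 8. Called genes were 15.0% (higher) and 14.2% (lower) of those tested, so some would lie side by side in any order. Whether 40.4% exceeds that share was not tested. Where both neighbours of a pair were called and their models overlapped on opposite strands, the calls had the same direction in 215 of 224 convergent and 118 of 122 divergent pairs. Without overlap and within 1 kb, the same direction was seen in 206 of 274 same-strand pairs (75.2%), 87 of 125 divergent pairs (69.6%) and 45 of 83 convergent pairs (54.2%). Beyond 1 kb the shares were 59.7%, 59.2% and 53.8%. Of 2087 overlapping neighbours on opposite strands, 15 had identical counts in all 6 libraries and 39 had counts within 5% of each other, so some reads stand in both models. Of the 13950 genes tested, 6109 (43.8%) overlapped another model. Among the 7841 that did not, 1145 (14.6%) were higher and 1204 (15.4%) lower, near the 15.0% and 14.2% of all genes tested. Without scaling factors these were 1425 higher and 962 lower, as all genes tested shifted to 2619 higher and 1521 lower.

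Scaffold 77936 stood out for genes lower in rewetting. Of its 44 tested genes, 28 (63.6%) were lower, 0 were higher and 16 did not pass. Across the 159 scaffolds with at least 20 tested genes, the median share lower was 13.5%, and 63.6% was the highest. All 59 gene models of the scaffold together took 13.9%, 12.2% and 14.7% of the counts in drying and 7.78%, 6.02% and 6.35% in rewetting, with no overlap between the groups. They took 3.30% and 5.48% in undried larvae and between 11.7% and 13.6% in dry larvae. At 12, 24 and 48 h of rehydration the share was 3.59%, 3.01% and 1.03%. The share in rewetting thus lay between that of drying larvae and that of undried larvae. The scaffold was singled out after its values were seen.

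The longest run of called genes lay on that scaffold (110208 to 133949), with 8 genes in 23.7 kb, 6 of them single-exon. Its genes summed to 10359, 6778 and 11791 CPM in drying (replicates 1, 3 and 2) and to 3395, 2264 and 2275 CPM in rewetting (3 h replicates 1 and 2, then 6 h). Their log2 fold changes lay between -2.38 and -0.89, with an adjusted p in edgeR of at most 0.0152. The gene at 116697 to 122011 accounted for 77.6% of the summed level, with 8415, 5376 and 9292 CPM in drying and 2497, 1413 and 1599 CPM in rewetting. The models at 129428 to 130149 and 129683 to 130275, on opposite strands, gave nearly equal values in every library (198 and 200 CPM in drying replicate 1), so they may count the same reads.

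A second run on the scaffold (92567 to 109115) held 7 genes in 16.5 kb, none of which overlapped another model. It summed to 19899, 15281 and 23416 CPM in drying and 10806, 10944 and 7948 CPM in rewetting. The groups did not overlap, and 6 of the 7 genes had 4 exons each. The most abundant, at 101247 to 103123, stood at 13456, 8855 and 14831 CPM in drying and 6623, 6495 and 5043 CPM in rewetting. In dry larvae the run summed to between 26628 and 35953 CPM, above its undried 4952 and 7144 CPM. The largest fall was at 94553 to 96195, from 62.3, 126 and 77.1 CPM to 25.7, 18.7 and 12.6 CPM.

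The other named runs of lower genes were less abundant. The 7 genes of scaffold 120 (113786 to 125698) summed to 124, 143 and 176 CPM in drying and 33.3, 47.8 and 39.6 CPM in rewetting. Within it, the gene at 124824 to 125698 went from 17.9, 23.6 and 36.8 CPM to 1.07, 1.60 and 1.04 CPM, a log2 fold change of -4.37 ± 0.26 (SE) (edgeR, adjusted p = 1.3e-05). It overlaps the model at 124052 to 125465 on the opposite strand, which went from 16.6, 18.7 and 32.1 CPM to 1.03, 1.36 and 1.11 CPM. Both may thus count some of the same reads. The run was not even, since the gene at its other end, at 113786 to 115830, fell by only 0.92 on the log2 scale. Without 3 h replicate 1, 4 of its 7 genes passed, and 5 did without scaling factors.

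On scaffold 245 (58888 to 83556), 5 nested and overlapping models summed to 81.8, 75.4 and 84.2 CPM in drying and 10.4, 11.2 and 15.7 CPM in rewetting. They stood at 36.7 CPM in undried larvae, between 0 and 4.62 CPM in dry larvae and at 17.4 CPM at 12 h of rehydration. Read across the 2 scales, the rewetting level of this region thus lay above its dry level and below its undried level. The run of scaffold 271 (256949 to 287599, 5 genes) summed to 409 ± 146 CPM in drying and 89.8 ± 14.2 CPM in rewetting (SD, n = 3 each). Leaving out any one of 8 h replicate 1, its batch 2 replicate and 3 h replicate 2 left 3 of its 5 genes past the threshold. The run of scaffold 77883 (47822 to 66706, 5 genes) summed to 453 ± 27.2 CPM in drying and 211 ± 6.43 CPM in rewetting (SD, n = 3 each).

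Among the 6 named runs of higher genes, that of scaffold 77834 (1655117 to 1671119) had the largest ratio of means. Its 4 overlapping models summed to 3.24, 2.55 and 4.42 CPM in drying and 79.7, 65.0 and 60.6 CPM in rewetting. The groups were 20.1-fold apart in their means, and the log2 fold changes of its genes lay between 3.61 and 6.39. Its most abundant model, at 1655117 to 1660646, stood at 2.86, 2.00 and 3.51 CPM in drying and 39.2, 34.3 and 28.9 CPM in rewetting (edgeR, adjusted p = 2.97e-05). The overlapping model at 1658744 to 1663435 on the opposite strand stood at 0.381, 0.551 and 0.649 CPM in drying and 35.5, 27.3 and 28.1 CPM in rewetting. The sum may thus count some reads more than once. The region was at 4.39 CPM in undried larvae, between 35.4 and 51.5 CPM in dry larvae, at 27.6 CPM at 12 h and at 0.531 CPM at 48 h of rehydration. The region was thus high in dry larvae as well and low in the library at 48 h.

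The 5 genes of scaffold 20212 (465 to 5015) covered most of that short scaffold, with 5 of its 6 models tested, and none overlapped. They summed to 21.1, 15.7 and 14.8 CPM in drying and 158, 85.6 and 76.9 CPM in rewetting. This region differed from the one above in recovery, with 144, 194 and 266 CPM at 12, 24 and 48 h of rehydration. Its level in undried larvae was 3.50 CPM in one library and 77.5 CPM in the other, so the undried level is not known from these libraries. In the fit of all libraries but the outlying one, 0 of its 5 genes passed.

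The remaining runs of higher genes changed less. The 6 genes of scaffold 421 (171306 to 191578) summed to 151, 139 and 217 CPM in drying and 421, 511 and 449 CPM in rewetting. On the scale of 32 libraries, their undried level was 89.4 CPM and their dry level 230 CPM. The 6 of scaffold 1299 (194037 to 204739) summed to 171, 157 and 186 CPM in drying and 373, 345 and 445 CPM in rewetting, with 113 CPM in dry larvae. Read across the 2 scales, these regions were thus higher at 3 to 6 h of rehydration than in the dry and undried libraries alike. The run of scaffold 436 (48860 to 58175, 5 genes) summed to 1043 ± 135 CPM in drying and 1856 ± 221 CPM in rewetting (SD, n = 3 each). In dry larvae it summed to 3360 CPM on the scale of 32 libraries, where the TMM factors of the dry libraries were 0.557 to 0.730. How far its dry level lay above its rewetting level thus depends on scaling. With 8 h replicate 1 left out, or the batch 2 library of 8 h or of 3 h, 3 of its 5 genes passed. On that scaffold the models at 57214 to 58175 and 57223 to 57826, on opposite strands, had equal CPM in all 6 libraries. The most abundant models of the run, at 48860 to 50472 and 49123 to 50456 on opposite strands, were nearly equal too. They stood at 410 and 406 CPM in drying replicate 1 and at 827 and 814 CPM at 3 h replicate 1. The summed level of this run may thus count many reads more than once. The run of scaffold 593 (112431 to 128860, 5 genes) summed to 134 ± 8.91 CPM in drying and 217 ± 18.9 CPM in rewetting (SD, n = 3 each). Without 8 h replicate 2 or 3 h replicate 2, 1 of its genes passed, and without 8 h replicate 1 or 3 h replicate 1, 2 did.

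**Figure D5:**
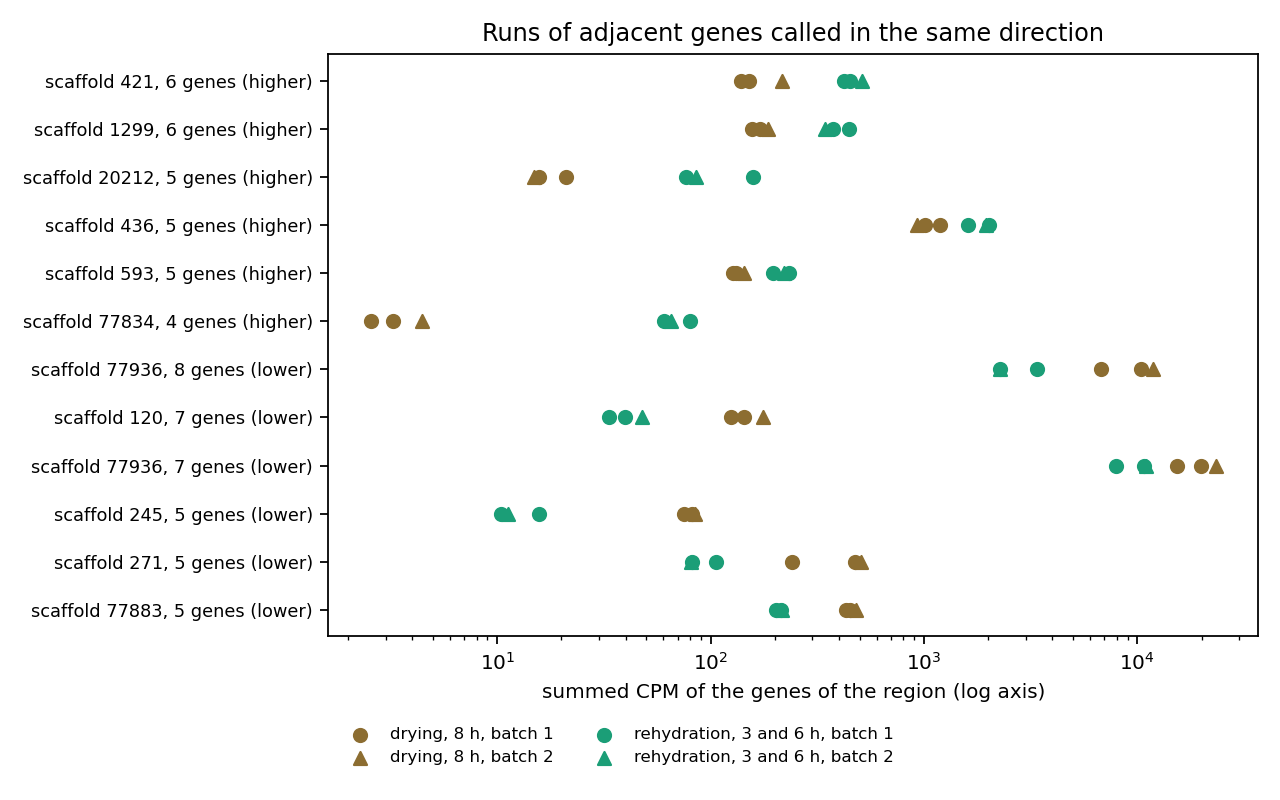
Each point is the summed CPM of the genes of a run in 1 library, on a log axis, in brown for 8 h of drying and green for 3 and 6 h of rehydration, with circles for batch 1 and triangles for batch 2. The upper 6 runs are higher and the lower 6 are lower in rewetting, and the groups do not overlap in any of the 12. The runs were built from genes called on these same libraries, so the separation is a description.

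Within rewetting, few genes told 3 and 6 h apart. With 1 library at 6 h, assumed to vary like the others, edgeR called 4 genes between 6 and 3 h, or 0.0287% of those tested, 2 higher and 2 lower, with 719 genes at an unadjusted p under 0.05. In batch 1, the median log2 difference from 8 h of drying was 1.28 at 3 h and 1.22 at 6 h over the higher genes, and -1.32 and -1.33 over the lower genes. Of the higher genes, 858 of 2098 (40.9%) lay farther from drying at 6 h than at 3 h, and of the lower genes 973 of 1983 (49.1%). Among the called genes, 118 of the higher (5.62%) and 270 of the lower (13.6%) differed at least 2-fold between these 2 libraries. Over all genes tested the share was 14.6%. The test of rewetting against drying counted the difference between these libraries as spread, so genes far apart between them were less likely to be called. The medians and shares of the called genes are thus a description.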

How the data were processed

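RNA-seq libraries were made from polyadenylated RNA of whole larvae with a TruSeq kit, per the labels. The deposited table holds raw read counts for 28415 genes, with gene models in a separate deposited annotation. The submitters' processing notes name TopHat2. Its version, the build, the counter and whether strand was used are not given in the sources used here, so overlapping models are uncertain.

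Libraries were grouped by title. The 13950 genes at 1 CPM or more in 3 or more of the 6 libraries entered edgeR 4.0.16 (with limma 3.58.1, in R 4.3.3), with TMM scaling, robust quasi-likelihood F-tests, terms for batch and group, and Benjamini-Hochberg adjustment. Standard errors were taken from the fold change and the F statistic. Log2 CPM used a prior count of 2. Replicate libraries differed by more than sampling noise, with a chi-square per degree of freedom of 52.0 to 70.2 over genes with at least 20 counts. Floors of 3 counts cover counting error only, and bounds against them use total counts times TMM factors. Levels outside the comparison used factors over 32 libraries.

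Named genes were those past the threshold, at least 2-fold apart, without overlap, with a mean of at least 5 CPM in the higher group and the same direction in both batches. In each direction the one with the largest fold change and the most abundant one were named, with the 6 longest runs, ties broken by mean absolute log2 fold change. Lists took a log2 difference of at least 1 without overlap of libraries. Alternatives were DESeq2 1.42.0, other scalings, filters, samples, batch terms and thresholds, and each library left out. The members and lists were chosen with earlier results of these data known. Levels and lists without scaling factors were added after seeing the data.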

Additional observations from a re-analysis of the deposited data

Results flagged for a closer look

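The difference from 8 h of drying was not the same at 3 and 6 h of rehydration for 4 genes, by edgeR's test of 6 h against 3 h (Benjamini-Hochberg adjusted p = 0.0312 for each), which rests on 1 library at 6 h. The gene at 97592 to 98373 on scaffold 141 had a log2 difference of 2.36, with 46.9 and 41.6 CPM at 3 h, 233 CPM at 6 h and 112 to 118 CPM at 8 h of drying, so it was below drying at 3 h and above it at 6 h. The gene at 86783 to 87974 on scaffold 251 had a log2 difference of 2.71, with 12.9 and 25.2 CPM at 3 h and 79.7 CPM at 6 h. At 0 h of rehydration both replicates of that gene held 0 counts, and at 12 h it stood at 74.4 CPM.

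The gene at 174 to 2657 on scaffold 16902 had a log2 difference of -3.52, and the gene at 1 to 461 on scaffold 18681 one of -3.38. The first stood at 132 CPM at 3 h in batch 1, 38.0 CPM at 3 h in batch 2 and 13.0 CPM at 6 h, and at 88.4, 99.3 and 17.5 CPM in the drying replicates 1, 3 and 2. The second stood at 72.6, 23.5 and 7.82 CPM in rewetting and 39.9, 43.7 and 9.09 CPM in drying. Both were thus lower in batch 2 than in batch 1 in drying and at 3 h as well. None of the 4 was called between rewetting and drying, and none was called between 6 and 3 h in the fit of all libraries but the outlying one. No group here had the 4 libraries needed to look for an outlying sample.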

How the results depend on the processing

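The 4 named genes kept their direction and their call under all alternatives in which they were tested, and 0 of the genes called higher or lower was called in the opposite direction under any alternative. For rewetting against drying, genes called higher and lower numbered 1346 and 1288 in batch 1 alone, 1047 and 1067 in the test against a 1.5-fold change, and 299 and 590 with all 33 libraries. Leaving out each library in turn gave 1314 to 1934 higher and 1255 to 1778 lower. The other alternatives stayed within 1.5 times, and of the 2098 higher and 1983 lower genes DESeq2 called 2095 and 1983 again. With the replicate block, which took the number in the title as a block and all batch 2 libraries as 1 level, 1891 genes were higher and 1792 lower. The groups share only the number 1 in their titles, so no pairing can be claimed. Without a filter on low counts, the group by batch interaction called 32 higher and 32 lower genes, and 6 h against 3 h called 60 and 87. With all libraries but the outlying one, 6 h against 3 h called 0 and 0 genes, with 362 at an unadjusted p under 0.05. The cause was not tested. All genes of a run passed in 134 of 216 combinations of run and alternative, and at least 1 did not in 82. Precision rests on 3 libraries per group, and genes under 1 CPM were not tested.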

Other observations

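The batch 2 library at 3 h of rehydration held 22047 genes with at least 1 count, while the other 5 libraries held between 18781 and 19724. Its total of 26177377 counts was close to the 26564125 of the batch 1 library at 3 h, which held 19343 such genes. The part of this difference in the calls was not tested. Counts without this library are given above, and there the batch term also takes up the 8 h library of batch 2.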
